A study of Mus musculus with 36 samples.

Results

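Gadd45a, Gadd45b, Gadd45g, Btg1, Btg2, Btg3, Plk2 and Plk3 are the stress-induced growth arrest genes of the GADD45, BTG and Polo-like kinase families. They were taken by gene symbol with no cut on their values, but earlier results of these data were known when they were chosen. They are 8 of the 27179 mouse genes counted, and all 8 passed the filter on low counts that left 12321 genes to test. RNA sequencing covered 3 lymphoma cell lines, AH47A, 287 and 621, labelled Em-myc for a Myc transgene under an immunoglobulin enhancer active in B cells. Each line carried a negative control construct or 1 of 5 constructs for a mutant TRP53 protein, labelled G280, I192S, R246Q, R270H and V170M. Each was harvested untreated or after 12 hours in 5 µM nutlin-3a, which releases p53 from its inhibitor MDM2. This made 36 libraries in 12 groups of construct and treatment, each group with 1 library from each line (n = 3). All lines carry the Myc transgene, and the control as well as the mutant cells received a construct. Treated cultures also received 25 µM QVD-OPH, a broad caspase inhibitor. The sources used here do not say whether untreated cultures received it, so an effect of nutlin-3a and one of QVD-OPH cannot be told apart. No independent repeat of any line is named, so p-values measure the spread between these libraries.

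GADD45 proteins are small stress sensors that bind PCNA, the Cdk1 and cyclin B1 kinase, p21 and the kinase MAP3K4 (MTK1), through which they act on the p38 and JNK pathways. BTG proteins hold back proliferation by bringing the CCR4-NOT deadenylase to mRNAs, and BTG1 and BTG2 are known for keeping lymphocytes quiescent. PLK2 and PLK3 are Polo-like kinases induced by stress and growth factors, in contrast to the mitotic kinase PLK1. Gadd45a, Btg2, Plk2 and Plk3 are known targets of p53, while Gadd45b is a target of NF-κB and Btg1 of FOXO factors. Gadd45g is known as a cytokine-induced member of its family.

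The promoter sequences of the 5 genes that changed after nutlin in the control cells are shown because these genes carry the response described below. Each run holds the 250 bases before the annotated gene start, 5′ to 3′ on the gene's strand, from RefSeq on GRCm38.p6, and all 8 genes were found there. Capitals mark the only match to any of 4 motifs, searched on both strands: the p53 half-site (Gadd45a), the E-box CACGTG (Gadd45g), the forkhead site TGTTTAC (Btg1) and the cAMP response element TGACGTCA (Btg2 and Plk2).
Gadd45a, chr6:67037408-67037657, minus strand: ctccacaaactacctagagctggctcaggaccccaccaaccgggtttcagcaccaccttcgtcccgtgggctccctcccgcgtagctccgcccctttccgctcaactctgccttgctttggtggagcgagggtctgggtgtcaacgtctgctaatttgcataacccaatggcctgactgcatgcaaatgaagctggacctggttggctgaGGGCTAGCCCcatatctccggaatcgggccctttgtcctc
Gadd45g, chr13:51846425-51846674, plus strand: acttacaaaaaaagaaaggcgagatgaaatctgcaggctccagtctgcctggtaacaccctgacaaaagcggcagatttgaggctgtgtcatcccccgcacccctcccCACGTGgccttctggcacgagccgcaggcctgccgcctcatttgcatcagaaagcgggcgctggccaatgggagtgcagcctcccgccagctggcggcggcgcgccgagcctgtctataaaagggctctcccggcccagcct
Btg1, chr10:96616751-96617000, plus strand: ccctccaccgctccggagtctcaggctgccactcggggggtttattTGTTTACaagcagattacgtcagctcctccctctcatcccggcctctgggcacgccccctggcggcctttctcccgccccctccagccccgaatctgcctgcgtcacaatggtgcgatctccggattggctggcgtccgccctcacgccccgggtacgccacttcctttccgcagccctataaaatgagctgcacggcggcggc
Btg2, chr1:134079156-134079405, minus strand: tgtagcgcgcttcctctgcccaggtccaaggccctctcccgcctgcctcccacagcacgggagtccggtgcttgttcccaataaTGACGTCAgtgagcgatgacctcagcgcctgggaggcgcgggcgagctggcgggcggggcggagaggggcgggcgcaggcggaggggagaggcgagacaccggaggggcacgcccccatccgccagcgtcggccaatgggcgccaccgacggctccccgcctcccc
Plk2, chr13:110394794-110395043, plus strand: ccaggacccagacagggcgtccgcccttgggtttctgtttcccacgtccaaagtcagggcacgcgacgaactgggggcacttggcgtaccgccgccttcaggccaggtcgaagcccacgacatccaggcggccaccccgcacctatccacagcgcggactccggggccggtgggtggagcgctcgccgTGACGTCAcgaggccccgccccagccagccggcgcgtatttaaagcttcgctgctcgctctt

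The motifs were chosen after these promoters had been read, and no marked matches overlap. Of 27018 mouse promoter windows of the same length, 7.18% held a p53 half-site, 6.05% the E-box, 3.09% the forkhead site and 1.62% the cAMP response element. The marked match begins 40 bases before the gene start in Gadd45a, 142 in Gadd45g, 204 in Btg1, 166 in Btg2 and 62 in Plk2. Gadd45b held the E-box as well, and the windows of Btg3 and Plk3 held none of the 4. A match is a description of letters, and no binding was measured.

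The genes lie apart on GRCm38 and differ in the length over which their reads were counted. Gadd45a (gene 13197) spans chr6:67035096-67037407, with a counted length of 1224 bases. Gadd45b (17873) spans chr10:80930091-80932204 with 1266 bases, and Gadd45g (23882) spans chr13:51846675-51848475 with 1081 bases. Btg1 (12226) spans chr10:96617001-96622813 with 5010 bases, Btg2 (12227) chr1:134074865-134079155 with 3083 bases, and Btg3 (12228) chr16:78359860-78377181 with 1389 bases. Plk2 (20620) spans chr13:110395044-110400844 with 2802 bases, and Plk3 (12795) chr4:117128655-117133963 with 2367 bases. Genes on the other strand overlap Gadd45a, Btg3 and Plk3, and whether the counting used strand is not stated in the labels. The overlapping genes held 0 to 8 counts per library at Gadd45a (E230016M11Rik), 9 to 76 at Btg3 (Cxadr) and 0 to 3 at Plk3 (Tctex1d4). The pseudogenes of Btg1 held at most 1 count.

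Libraries held 5404113 to 10718302 counts. Trp53 counts, which can hold transcripts of the mouse gene and of the construct, were lower in the control than in all 5 mutants in every line and treatment. The 7 B cell markers summed to 981 to 1835 CPM (counts scaled to a common library total) in all libraries. Of these, Ms4a1 averaged at most 0.515 CPM in either treatment of AH47A and 287, and 4.51 CPM in untreated 621. The 5 T cell markers summed to at most 0.362 CPM, and Cd4 was at 0 in every library. The 3 erythroid markers summed to at most 3.37 CPM and the 4 fibroblast markers to at most 2.88 CPM. The 5 myeloid markers summed to 3.72 to 23.2 CPM untreated and 5.91 to 53.3 CPM after nutlin, highest in line 287. In the mean nutlin response, 6 of 7 B cell markers fell, against 36.1% of all genes tested. Of 2 myeloid markers tested, Itgam rose (log2 change 1.82 ± 0.15), against 32.8% of all genes tested. The other, Cd68, was not called in that mean but was higher in the control alone (1.15 ± 0.26, edgeR adjusted p = 0.00119). The part of these markers in the results below was not tested. In such bulk samples, fewer cells expressing a gene and less of its RNA per cell cannot be told apart.

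After nutlin-3a the control cells raised Plk2, Gadd45a, Btg1 and Btg2 and lowered Gadd45g, while Gadd45b, Btg3 and Plk3 did not pass the test. In the control libraries of lines AH47A, 287 and 621, Plk2, a kinase known for centriole duplication and checkpoint signalling, went from 8.54, 25.2 and 0.130 CPM to 154, 368 and 0.740 CPM. Its fitted log2 change was 3.95 ± 0.31 (SE), or 15.5-fold (edgeR quasi-likelihood test, Benjamini-Hochberg adjusted p = 6.28e-10, n = 3). Each of the 3 lines was higher after nutlin, but line 621 stayed at 1 and 4 counts.

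Gadd45a, the p53-induced member of its family, was at 1.27, 2.73 and 2.08 CPM in the untreated control of the same lines and at 7.41, 13.4 and 4.07 CPM after nutlin. All nutlin values lay above all untreated ones, with a log2 change of 1.98 ± 0.40 (edgeR adjusted p = 0.000377). Btg1, an antiproliferative gene known for its high level in resting lymphocytes, went from 29.7, 41.8 and 46.0 to 96.2, 167 and 74.9 CPM. Its groups did not overlap either, and its log2 change was 1.49 ± 0.27 (edgeR adjusted p = 0.000136).

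Btg2, an immediate-early antiproliferative gene, averaged 91.2 ± 36.8 CPM (SD, n = 3) in the untreated control and 125 ± 13.1 CPM after nutlin. The groups overlapped across lines, and the paired log2 change was 0.53 ± 0.18 (edgeR adjusted p = 0.0191). This call was lost without line AH47A, without line 621, without either AH47A control library and when only the 2 groups compared were fitted. Gadd45g moved the other way, from 15.7, 9.57 and 0.912 CPM to 3.09, 3.70 and 0.370 CPM. It was lower in each line, with a log2 change of −1.82 ± 0.53 (edgeR adjusted p = 0.00788). That call was lost without line AH47A or without its nutlin-treated control library.

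Gadd45b, known to protect cells from apoptosis, had a log2 change of 0.36 ± 0.36 (edgeR adjusted p = 0.435). Btg3, which is known to bind E2F1, had 0.03 ± 0.19 (adjusted p = 0.922), and Plk3, a stress-activated kinase, had −0.40 ± 0.31 (adjusted p = 0.299), both by edgeR. Thus 4 of the 8 were called higher, against 21.9% of all genes tested, and 1 was called lower, against 20.8%. The median log2 change was 0.44 over the 8 and −0.01 over all genes tested. Since constructs of 1 line have that line's response in common, p-values of a response from this fit can be too small.

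**Figure D1:**
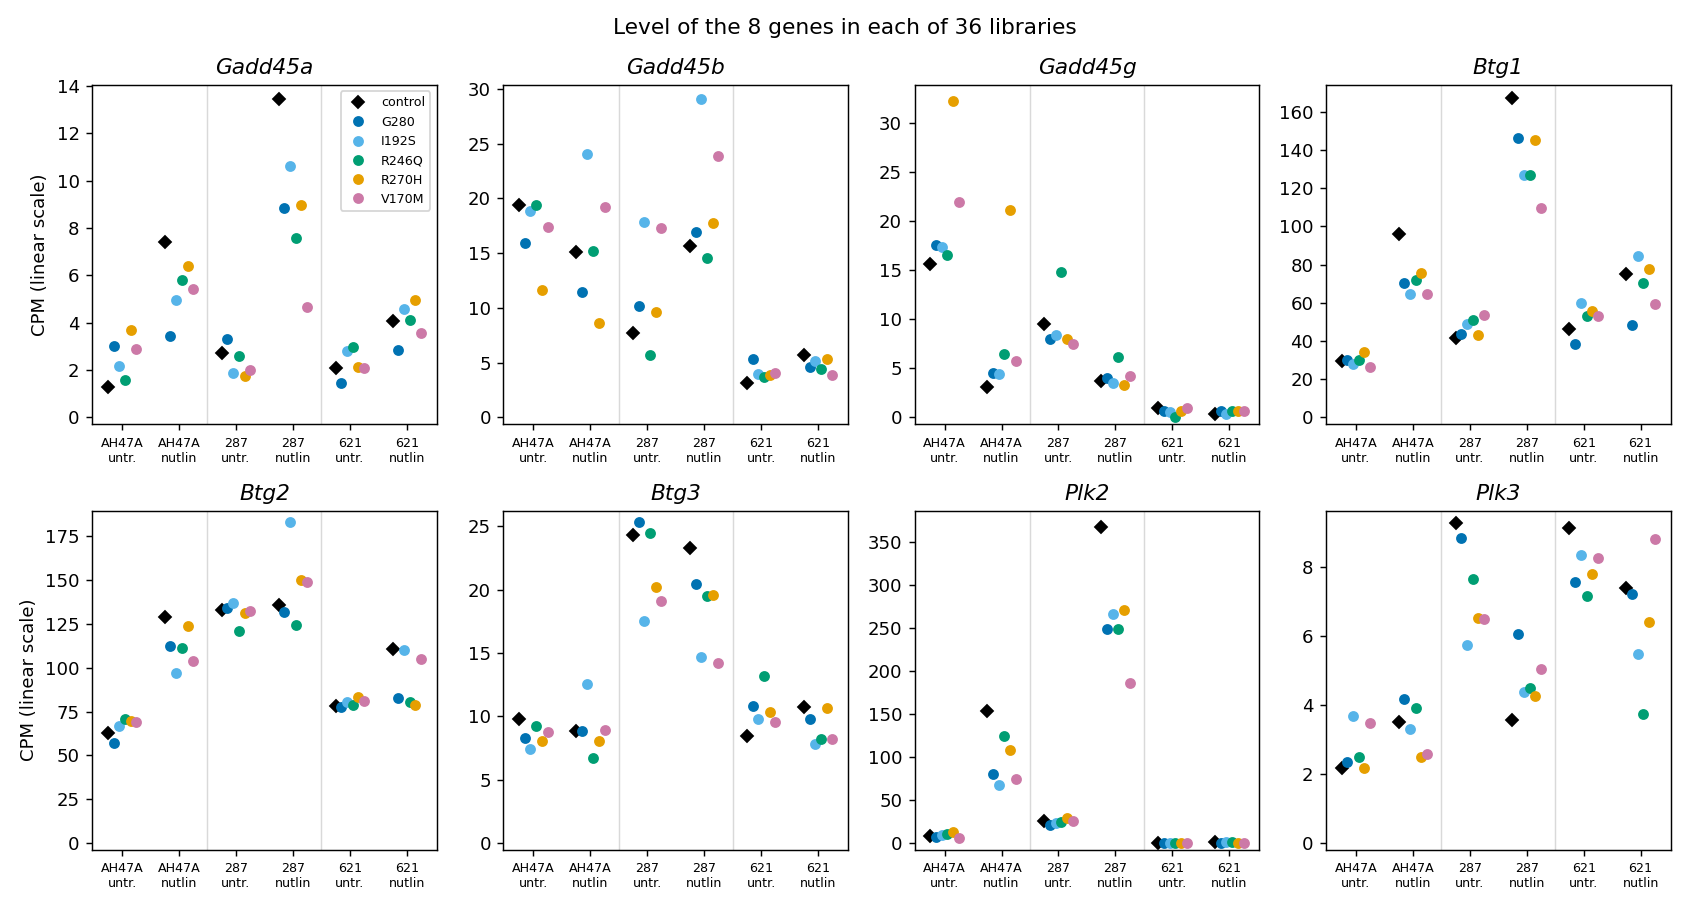
Level of each gene in all 36 libraries, in CPM on a linear scale with a separate axis per gene, by line and treatment; diamonds are the control and circles the 5 mutants. Plk2 lies at 68.1 to 154 CPM in nutlin-treated AH47A and 186 to 368 CPM in 287, with the control on top in both, and at no more than 1.33 CPM in any library of 621.

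Over all 6 constructs the same 5 genes were called. The mean log2 response was 3.35 ± 0.12 for Plk2, 1.32 ± 0.16 for Gadd45a, 1.10 ± 0.11 for Btg1, 0.38 ± 0.07 for Btg2 and −1.29 ± 0.21 for Gadd45g. The edgeR adjusted p ran from 5.44e-18 for Plk2 to 5.04e-05 for Btg2. Here 4 of 8 were higher, against 32.8% of all genes tested, and 1 was lower, against 36.1%. When the constructs were summed to 1 value per line and treatment, Btg2 was no longer called (edgeR adjusted p = 0.144), and the other 4 were. Plk3, at −0.28 ± 0.13 (edgeR adjusted p = 0.0516), and Gadd45b, at 0.30 ± 0.14 (adjusted p = 0.0641), fell just short, and both were called when the fit gave each line its own response (adjusted p = 0.0428 and 0.0288).

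Plk2 rose in the cells of each mutant (n = 3 lines), with a log2 change of 3.46 ± 0.31 for G280, 3.35 ± 0.30 for R246Q, 3.27 ± 0.31 for I192S, 3.07 ± 0.30 for R270H and 3.00 ± 0.31 for V170M. Line 621 added few counts to these values. There Plk2 held 3 counts untreated and 2 after nutlin in R270H (0.288 and 0.261 CPM), and 5 and 4 in V170M (0.475 and 0.619 CPM). Btg1 rose in 4 mutants, by 0.99 to 1.18 on the log2 scale, and was not called in V170M by this fit (DESeq2 0.83, adjusted p = 0.03; edgeR adjusted p = 7.88e-05 with a response for each line and 0.000385 without 621). The Btg1 calls were lost without 287 in all 4 mutants and without AH47A in G280, I192S and R246Q. They were also lost without the nutlin library of 287 in G280, without the untreated one in I192S, without either in R246Q, and in G280 with only the groups compared. Gadd45a rose in I192S, R246Q and R270H, by 1.27 to 1.45. Its call was lost without line 287 in each of these, without AH47A in R246Q and without 621 in R270H. It was also lost without either 287 library or with only the groups compared in I192S, without any 1 of the 4 libraries of AH47A and 287 in R246Q, and without the untreated 287 library in R270H. In G280 (0.91 ± 0.39) and V170M (0.96 ± 0.40) Gadd45a was not called by this fit. It was called in both with a response for each line (edgeR adjusted p = 0.0462 and 0.0299). Gadd45g fell in I192S, by 1.54 on the log2 scale (edgeR adjusted p = 0.0298), a call lost without any 1 of the 3 lines. In all, 2 of 8 genes were higher in G280 (10.7% of all genes tested). The count was 3 for I192S (13.6%), where 1 was lower (11.2%), 3 for R246Q (12.1%), 3 for R270H (15.8%) and 1 for V170M (5.77%). A gene called in one construct and not in another is not thereby shown to differ between them.

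The 3 lines began from different levels of these genes. Before treatment 7 of the 8 differed between lines, against 79.3% of all genes tested, and Gadd45a was the exception (edgeR F test in which a line's 6 constructs serve as its replicates, adjusted p = 0.949). Over 6 constructs, untreated Gadd45a had a lowest, median and highest value of 1.27, 2.53 and 3.70 CPM in AH47A, 1.74, 2.30 and 3.31 in 287, and 1.46, 2.10 and 2.96 in 621. The ranges of the 3 lines overlapped. Between pairs of lines, called untreated differences covered 58.8% of all genes for 287 and AH47A, 58.6% for 621 and AH47A and 60.4% for 621 and 287, and these shares stand behind the pairs named next.

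Line 621 stood apart for Plk2 and Gadd45g. Its untreated Plk2 had a lowest, median and highest value of 0, 0.240 and 0.493 CPM, against 6.36, 8.85 and 12.4 in AH47A and 21.2, 24.8 and 28.9 in 287. The 6 untreated libraries of 621 held 15 Plk2 counts in all, and those of 287 held 1286. The library at 0 (G280) allows up to 0.366 CPM, the level of 3 counts, for counting error only. The fitted difference of 621 from AH47A was −5.01 ± 0.30 on the log2 scale (edgeR adjusted p = 3.39e-14), and from 287 it was −6.45 ± 0.25 (adjusted p = 3.06e-18).

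Untreated Gadd45g had a lowest, median and highest value of 0, 0.641 and 0.949 CPM in 621, 7.48, 8.20 and 14.9 in 287, and 15.7, 17.5 and 32.3 in AH47A. No ranges overlapped between the lines. Line 621 was lower than AH47A by a log2 difference of −4.96 ± 0.36 (edgeR adjusted p = 5.67e-12) and lower than 287 by −3.87 ± 0.38 (adjusted p = 1.64e-09). Plk2 and Gadd45g both lie on chromosome 13, where 85 of 488 tested genes were lower in 621 than in both other lines, against 2016 of all 12321 tested. Within 1 Mb of Plk2 the 1 other tested gene was Pde4d. Its log2 difference of 621 was −7.68 from AH47A and −1.78 from 287, and it was not called lower than both. Of 8 other tested genes within 1 Mb of Gadd45g, 1 was lower than in both. A part of position was not tested.

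Gadd45b ran in the same order of lines as Gadd45g, with untreated medians of 18.1 CPM in AH47A, 9.90 in 287 and 3.89 in 621, and each pair of lines was called different. Btg2 (67.9, 133 and 79.8 CPM in AH47A, 287 and 621) and Btg3 (8.52, 22.3 and 10.1 CPM) had their highest medians in 287. Btg3 did not differ between 621 and AH47A beyond its spread (log2 difference 0.28 ± 0.13, edgeR adjusted p = 0.0696). Btg1 (29.9, 46.3 and 53.1 CPM) and Plk3 (2.43, 7.08 and 8.02 CPM) were lowest in AH47A, and neither differed between 621 and 287 beyond its spread (edgeR adjusted p = 0.338 and 0.520).

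Per length, Btg2 was the most abundant of the 8 in each untreated line, with median levels of 22.0, 43.0 and 25.9 CPM per kilobase in AH47A, 287 and 621. After nutlin, Plk2 had the highest median level in 287, at 92.0 CPM per kilobase against 46.2 for Btg2. In AH47A Plk2 was at 33.7 and Btg2 at 36.2 CPM per kilobase. In 621 Btg2 remained first at 30.4 CPM per kilobase and Plk2 last at 0.242.

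Within the GADD45 family, Gadd45a had a larger median share after nutlin in each line. Of the summed level per length of the 3 genes, Gadd45a had a median share of 5.96% in untreated AH47A, 9.51% in 287 and 33.0% in 621. After nutlin the median shares were 17.6%, 28.1% and 44.6%. Gadd45g went from a median share of 50.5% to 23.8% in AH47A and from 42.9% to 13.8% in 287. Gadd45b had the largest median share after nutlin in each line, at 56.8% in AH47A, 56.2% in 287 and 49.0% in 621. Untreated, its median shares were 42.8%, 45.3% and 55.1%. These shares are levels described over 6 constructs, with no test of their own.

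The response to nutlin also differed between the lines, for 6 of the 8 genes against 60.3% of all genes tested (edgeR F test on the line by treatment terms). These were Btg1 (adjusted p = 3.26e-07), Btg2 (5.39e-05), Plk3 (0.00849), Gadd45b (0.00882), Gadd45a (0.0175) and Plk2 (0.0237). Gadd45g (adjusted p = 0.228) and Btg3 (0.292) did not pass the same edgeR test. Without any 1 line, 3 genes were called between the remaining 2. Leaving out 621 ended the calls for Plk2, Btg1 and Gadd45a, leaving out AH47A those for Btg2, Gadd45b and Plk3, and leaving out 287 those for Gadd45a, Gadd45b and Plk3. Differences in response between pairs of lines were called for 46.9% of all genes for 287 and AH47A, 31.6% for 621 and AH47A and 41.4% for 621 and 287.

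Plk2 rose 10.8-fold in AH47A and 10.6-fold in 287 as fitted means. Over 6 constructs the nutlin-treated libraries had a lowest, median and highest value of 68.1, 94.4 and 154 CPM in AH47A and 186, 258 and 368 CPM in 287. No nutlin library of either line overlapped its untreated ones. The log2 response was 3.43 ± 0.13 in AH47A and 3.40 ± 0.11 in 287, a difference of −0.03 ± 0.17 (edgeR adjusted p = 0.913).

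In line 621 nutlin-treated Plk2 reached only 0.261, 0.679 and 1.33 CPM (lowest, median and highest). The 6 libraries summed to 27 counts after nutlin and 15 before, a depth-scaled ratio of 2.52 with a 95% interval of 1.29 to 5.10 that covers counting error only. The fitted response was 1.30 ± 0.57 on the log2 scale (edgeR adjusted p = 0.0473), which was 2.13 ± 0.65 less than in AH47A (difference −2.13, adjusted p = 0.0155). Cdkn1a, the p53 target that encodes p21, went in the same 621 libraries from 2.37 to 6.39 CPM untreated to 104 to 234 CPM after nutlin, without overlap.

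Btg1 after nutlin had a lowest, median and highest value of 64.4, 71.1 and 96.2 CPM in AH47A, 110, 136 and 167 CPM in 287, and 48.6, 72.7 and 84.2 CPM in 621. It was higher after nutlin in all 18 pairs of libraries, and only in 621 did the 2 treatments overlap. The log2 response was 1.30 ± 0.10 in AH47A, 1.53 ± 0.10 in 287 and 0.44 ± 0.10 in 621. Line 621 responded less than AH47A (difference −0.87 ± 0.14, edgeR adjusted p = 3.90e-05) and less than 287 (−1.10 ± 0.14, adjusted p = 2.52e-07).

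Gadd45a after nutlin lay at 3.42, 5.62 and 7.41 CPM in AH47A, 4.65, 8.90 and 13.4 in 287, and 2.86, 4.08 and 4.95 in 621 (lowest, median and highest). It too was higher in all 18 pairs. The log2 response was 1.19 ± 0.23, 1.90 ± 0.22 and 0.82 ± 0.24 in AH47A, 287 and 621. Only the difference between 621 and 287 passed the test (−1.08 ± 0.33, edgeR adjusted p = 0.00954).

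Btg2 responded mainly in AH47A, where it went from 57.2 to 70.6 CPM untreated to 97.0 to 129 CPM after nutlin, without overlap. Its log2 response there was 0.77 ± 0.08, against 0.14 ± 0.08 in 287 (not called, edgeR adjusted p = 0.107) and 0.23 ± 0.08 in 621. The AH47A response exceeded that of 287 (287 minus AH47A −0.63 ± 0.11, edgeR adjusted p = 4.43e-05) and of 621 (621 minus AH47A −0.54 ± 0.12, adjusted p = 0.000724).

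Gadd45b and Plk3 changed in 287. Gadd45b went from 5.68, 9.90 and 17.8 CPM to 14.5, 17.3 and 29.1 CPM (lowest, median and highest) and rose in all 6 pairs of that line, by a log2 value of 0.80 ± 0.19 (edgeR adjusted p = 0.000491). In AH47A its response was −0.18 ± 0.19 (not called), and the difference between these lines was 0.98 ± 0.27 (adjusted p = 0.00348). Plk3 went from 5.73, 7.08 and 9.27 CPM to 3.57, 4.43 and 6.04 CPM in 287 and was lower in all 6 pairs, with a log2 response of −0.68 ± 0.17 (edgeR adjusted p = 0.000748). In AH47A the estimate was 0.29 ± 0.20 (not called), and these 2 lines differed by −0.97 ± 0.26 (adjusted p = 0.00335). In 621 neither gene was called. There Gadd45b had 0.29 ± 0.25 and was higher after nutlin in 4 of 6 pairs. Plk3 had −0.32 ± 0.17 in 621 and was higher in 1 of 6.

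Gadd45g fell in AH47A, by a log2 value of −1.61 ± 0.26, and in 287, by −1.18 ± 0.29, and was lower after nutlin in all 12 pairs of these lines. In 621 its 35 untreated and 22 nutlin counts gave a ratio of 0.880, with a 95% interval of 0.492 to 1.54 for counting error only. The same ratio was 0.361 in AH47A and 0.430 in 287, both under that interval, while the edgeR F test between lines above did not pass for Gadd45g. Btg3 was called in no line, with log2 responses of 0.07 ± 0.13, −0.23 ± 0.12 and −0.17 ± 0.13 in AH47A, 287 and 621. Counted by line, 4 of 8 genes were higher in AH47A (21.4% of all genes tested), 4 in 287 (36.2%) and 4 in 621 (26.4%). In the lower direction these were 1 (22.2%), 2 (35.7%) and 0 (28.6%).

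**Figure D2:**
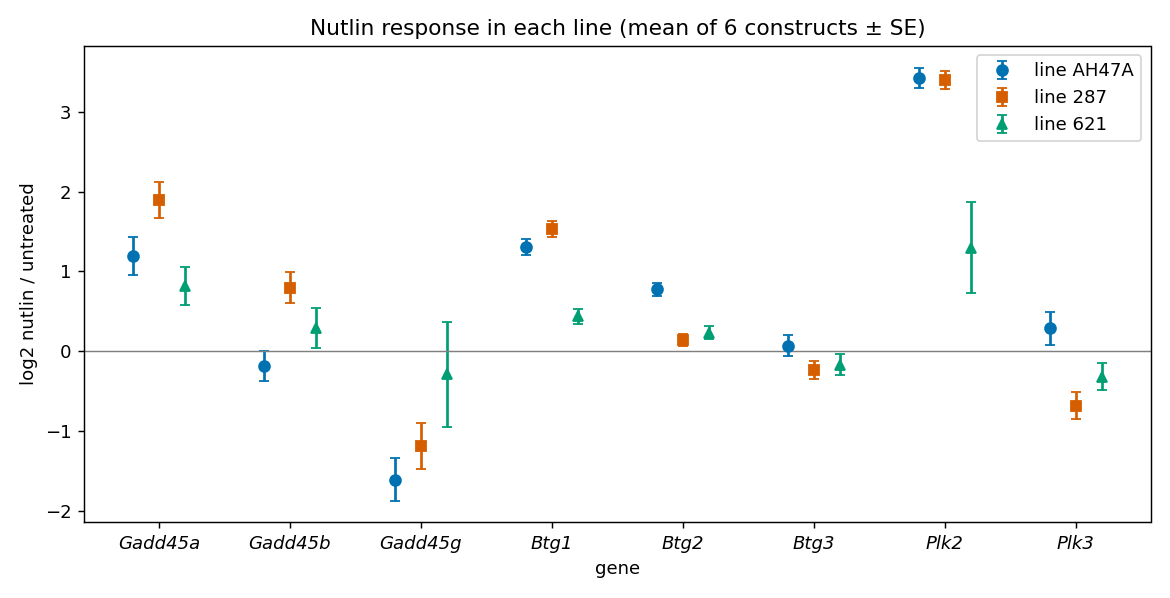
Log2 of nutlin over untreated in each line, as the fitted mean over 6 constructs with bars for ± SE. Plk2 stands at 3.43 in AH47A and 3.40 in 287 but at 1.30 ± 0.57 in 621, and Gadd45b and Plk3 lie on opposite sides of 0 in AH47A and 287.

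Under nutlin, cells with a mutant TRP53 protein had less Plk2 and less Btg1 than control cells, while the untreated mean of the mutants showed no called difference from the control in any of the 8. The change in response between the mean of the mutants and the control, given below, was called for 0 of the 8. A difference between the 2 treatments is thus not shown. In nutlin-treated AH47A, Plk2 was at 154 CPM in the control while the mutants G280, I192S, R246Q, R270H and V170M were at 80.5, 68.1, 124, 108 and 74.5 CPM. In 287 it was at 368 CPM in the control with 249, 266, 249, 271 and 186 CPM in the mutants in that order. The control lay above all 5 mutants in both lines, and in 621 all values were at or below 1.33 CPM.

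The mean of the 5 mutants differed from the control by −0.68 ± 0.12 in log2 Plk2 (edgeR adjusted p = 0.000449) and by −0.33 ± 0.10 in log2 Btg1 (adjusted p = 0.0222), in a fit that gives each line its own response. Btg1 under nutlin was at 96.2 CPM in the AH47A control and 64.4 to 75.8 in its mutants, and at 167 CPM in the 287 control and 110 to 146 in its mutants. In 621 the control, at 74.9 CPM, lay within the mutants' range of 48.6 to 84.2. So 2 of 8 genes were lower, against 8.76% of all genes tested, and 0 higher, against 7.22%. Both calls were lost with a cell line term that is the same for both treatments (adjusted p = 0.0914 for Plk2 and 0.398 for Btg1), and Plk2 was lost in DESeq2 (adjusted p = 0.161). The Plk2 call held without each line or library, and that for Btg1 was lost without AH47A, without 287 and without the nutlin-treated control of either.

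By mutant, Plk2 was lower in V170M (log2 difference −1.0 ± 0.17, edgeR adjusted p = 0.000221), in G280 (−0.74 ± 0.17, adjusted p = 0.00573) and in I192S (−0.74 ± 0.17, adjusted p = 0.0178). In R270H (−0.49 ± 0.17, edgeR adjusted p = 0.0930) and R246Q (−0.42 ± 0.17, adjusted p = 0.144) it was not called. Btg1 was lower in V170M (−0.51 ± 0.13, edgeR adjusted p = 0.00832). The share of all genes called lower was 9.84% in V170M, 5.11% in G280, 1.5% in I192S, 1.68% in R270H and 2.78% in R246Q. The 5 comparisons share the 3 control libraries. DESeq2 called none of the 3 Plk2 differences (adjusted p = 0.0975, 0.216 and 0.522 for V170M, G280 and I192S), and neither did the fit with the common line term.

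Some of these calls rest on single libraries. The G280 call for Plk2 was lost without line 621, without the G280 library of AH47A under nutlin, and without the control of AH47A under nutlin. The I192S call was lost without line AH47A or 287 and without the I192S or control library of AH47A under nutlin. Btg1 in V170M was lost without AH47A or 287, without the AH47A control under nutlin and without the V170M library of 287 under nutlin. A library was flagged at a gene when its gap to the nearest other library exceeded 0.625 of the range of its line and treatment. The nutlin-treated AH47A control was the library flagged most often, at 3.72% of genes. The next were the untreated AH47A library of R246Q, at 2.65%, and the nutlin-treated 621 library of G280, at 2.31%. Whether this bears on the mutants' values was not tested.

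Gadd45a under nutlin did not pass the test. Its nutlin level was 7.41 CPM in the AH47A control against 3.42 to 6.40 in the mutants, and 13.4 CPM in the 287 control against 4.65 to 10.6 in the mutants. In 621 the control, at 4.07 CPM, lay inside the mutants' range of 2.86 to 4.95 CPM, with 2 of 5 mutants below it. The mean log2 difference was −0.50 ± 0.22 (edgeR adjusted p = 0.121). Gadd45g had the largest positive estimate, 1.60 ± 0.48 in R270H (edgeR adjusted p = 0.0599), where the AH47A library held 21.1 CPM and the control 3.09. In 287 the same mutant was at 3.34 CPM and the control at 3.70, and in 621 they held 5 and 2 counts. Untreated, the AH47A library of R270H already held 32.3 CPM and the control 15.7. The R270H difference under nutlin was called without line 287 (edgeR adjusted p = 0.0108). It was also called without the nutlin-treated R270H library of 287 (edgeR adjusted p = 0.00238).

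The change in response between mutants and control was called for 0 of the 8 genes (edgeR, share of all genes 1.85% higher and 1.53% lower for the mean of 5 mutants). Of the 8, 3 had an unadjusted p under 0.05, against 17.4% of all genes. The estimates were −0.71 ± 0.22 for Plk2 (adjusted p = 0.0701), −0.46 ± 0.15 for Btg1 (0.0892) and −0.76 ± 0.37 for Gadd45a (0.282), all by edgeR. DESeq2 also called 0 for the mean, and 1 in V170M, where Btg1 had −0.67 (DESeq2 adjusted p = 0.0209, edgeR 0.0524, where edgeR called 1.83% of all genes lower). Among the 5 mutants themselves, 0 of 8 genes differed under nutlin (edgeR F test, 0.0243% of all genes, 3 of 8 at an unadjusted p under 0.05 against 12.1% of all genes), and the smallest adjusted p was 0.298, for Plk2. Untreated, 0 of 8 differed among the mutants (0.0812% of all genes, and 0 of 8 against 2.24% at an unadjusted p under 0.05) and 0 between the mean of the mutants and the control (0.00812% of all genes in each direction, and 0 of 8 against 2.23% at an unadjusted p under 0.05). DESeq2 called 0 of 8 in that last comparison as well.

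**Figure D3:**
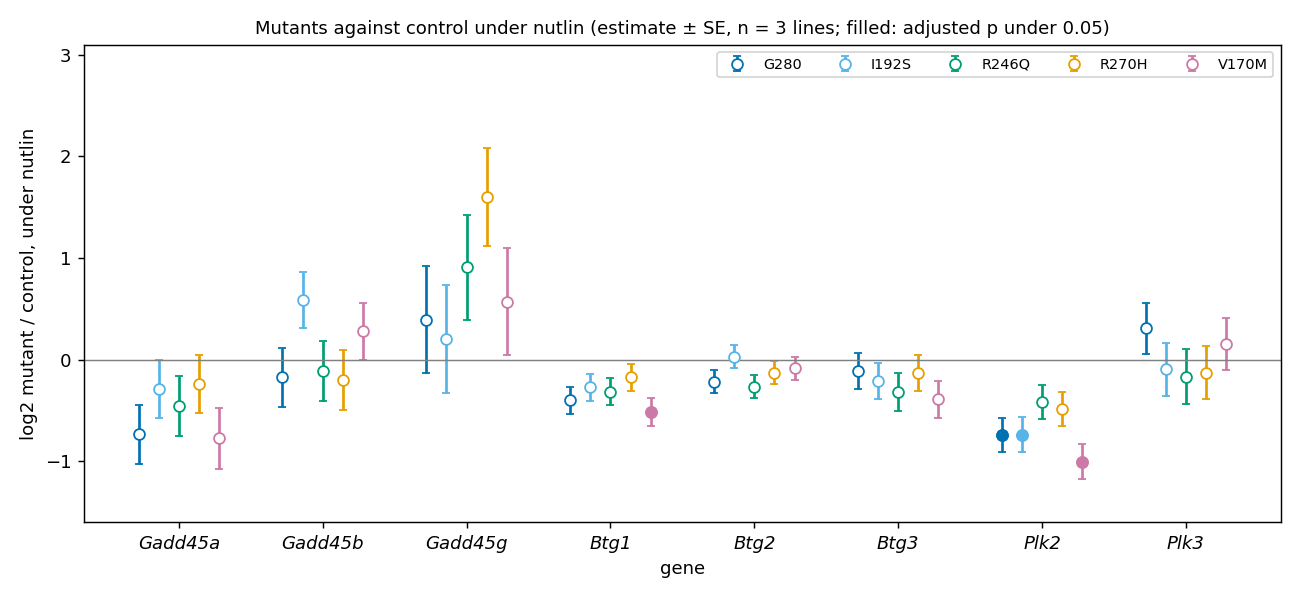
Log2 difference of each mutant from the control under nutlin, estimate ± SE from 3 lines; filled points have an edgeR adjusted p under 0.05. Plk2 lies below 0 in all 5 mutants, from −0.42 in R246Q to −1.0 in V170M, and 3 of its 5 points and 1 of Btg1 are filled.

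The levels of the responsive members ran together across libraries. After subtracting each line's mean log2 CPM, the Pearson r over 36 libraries was 0.97 for Btg1 with Plk2, 0.90 for Gadd45a with Btg1, 0.86 for Gadd45a with Plk2 and −0.72 for Gadd45g with Plk2. These libraries share the treatment. With the mean of each line and treatment subtracted, r was 0.64 for Btg1 with Plk2, 0.55 for Gadd45a with Btg1, 0.37 for Gadd45a with Plk2 and −0.20 for Gadd45g with Plk2. The values are descriptions, and libraries of a line are not independent.

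**Figure D4:**
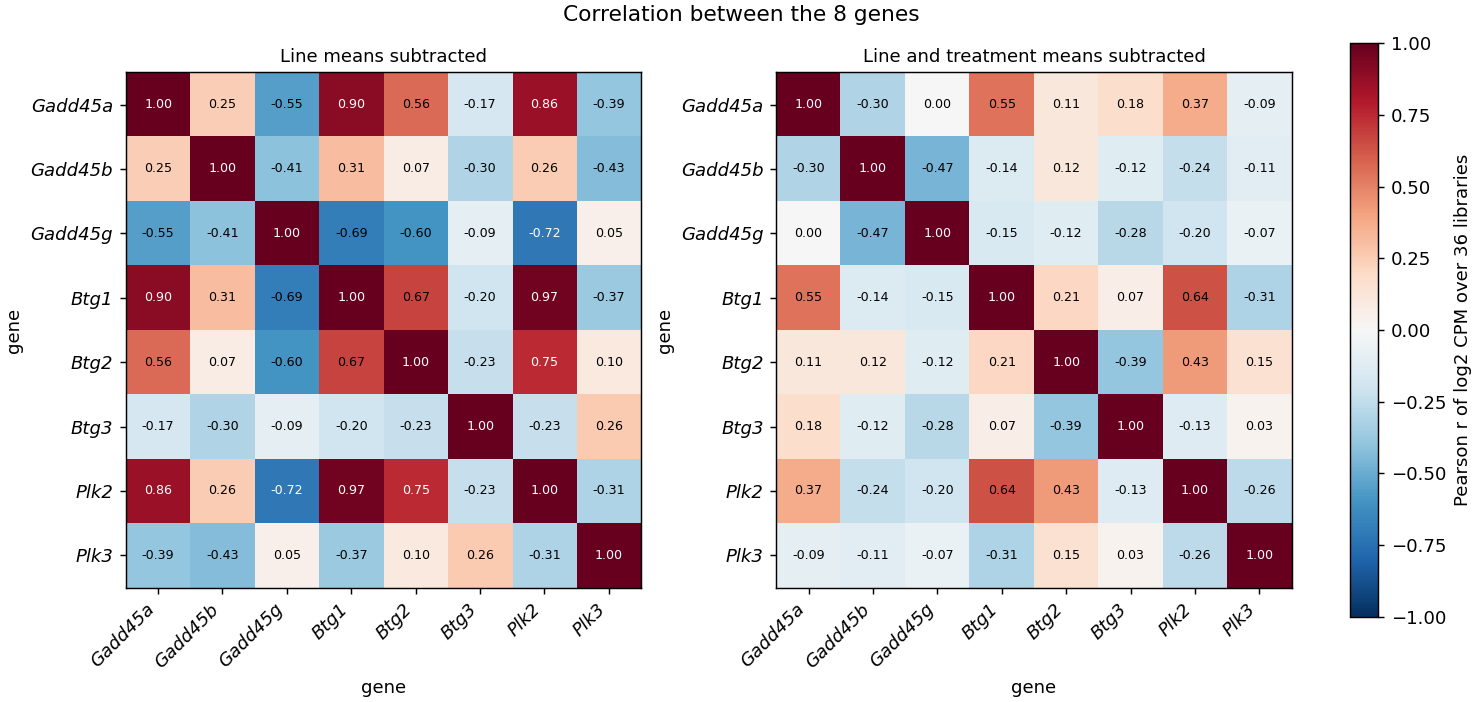
Pearson r of log2 CPM between the 8 genes over 36 libraries, with line means subtracted (left) and with means of line and treatment subtracted (right). Gadd45a, Btg1, Btg2 and Plk2 form a block of positive values on the left, of which Btg1 with Plk2 keeps 0.64 on the right.

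The genes with the most similar pattern to Plk2 after subtraction of line means were Dyrk3 (r = 0.968), Bbc3 (0.958) and Lif (0.957). For Btg1 they were Bmt2 (r = 0.966), Adamts6 (0.966) and Lrig2 (0.964), and for Gadd45a Ing3 (0.916), Chchd5 (0.915) and Mgea5 (0.914). For Btg2 they were Pde4b (r = 0.879), Jund (0.859) and Hlx (0.847), for Gadd45b Gramd3 (0.800), Casp1 (0.744) and Rragb (0.732), and for Gadd45g Ap1ar (0.804), Taf2 (0.803) and Tifa (0.793). For Plk3 they were Mthfd1 (r = 0.776), Sema3g (0.746) and Nt5c (0.711), and for Btg3 Xxylt1 (0.671), Naa50 (0.644) and Gnpnat1 (0.640). All are over 36 libraries that share line and treatment. Without that subtraction, values hold the differences between lines too. Plk2 was then most like Rell1 (r = 0.983), LOC68395 (0.976) and H2-Q7 (0.968), Btg1 like Adamts6 (0.962), Cytip (0.961) and Tmem168 (0.954), and Gadd45a like Fnip1 (0.915), Isg15 (0.909) and Foxo3 (0.907). Gadd45b was most like Casp1 (r = 0.943), Rragb (0.925) and Tbrg1 (0.914), and Gadd45g like Btrc (0.946), Frmpd1 (0.940) and Arvcf (0.939). For Btg2 they were Lrp1 (r = 0.918), Tgoln1 (0.896) and Dusp2 (0.887), for Btg3 Ly6d (0.935), Ltn1 (0.933) and Urb1 (0.926), and for Plk3 Cisd3 (0.889), Adam15 (0.887) and Fgd2 (0.878). H2-Q7 belongs to a gene family with near-identical copies, so its count is uncertain.

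Relatives of the 8 outside the set moved in both directions. Of Tob1, Tob2, Plk1 and Plk4, 1 rose and 2 fell in the mean of 6 constructs, with a median log2 change of −0.24. Tob1, an antiproliferative BTG relative, rose by a log2 value of 0.33 ± 0.09 (edgeR adjusted p = 0.00232). Tob2 fell (−0.55 ± 0.06), as did Plk1 (−0.74 ± 0.11), the kinase that drives mitosis, and Plk4, the kinase of centriole duplication, had 0.07 ± 0.04 and was not called. Btg4 held 5 counts in all 36 libraries and Plk5 held 0.

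Among 12 binding partners and effectors of GADD45, 3 rose (25% against 32.8% of all genes tested) and 6 fell (50% against 36.1%). The median log2 change was −0.17 against −0.03 over all genes tested. Cdkn1a rose by 6.43 ± 0.21, as did Map2k4 (0.18 ± 0.06) and Map2k7 (0.17 ± 0.04), which activate JNK, and Map2k3, which activates p38, fell (−0.65 ± 0.07), as did Cdk1 (−0.62 ± 0.09) and Ccnb1 (−0.58 ± 0.15). Map3k4 had −0.003 ± 0.062 and was not called. Of 14 tested genes of the CCR4-NOT complex and other BTG partners, 5 rose (35.7%) and 6 fell (42.9%), with a median of −0.08. These shares are near the 32.8% and 36.1% of all genes tested. The deadenylase Cnot8 rose (0.29 ± 0.05), as did Cnot4 (0.34 ± 0.08) and Tnks1bp1 (0.45 ± 0.18). Its paralog Cnot7 fell (−0.24 ± 0.07), as did Cnot11 (−0.24 ± 0.05) and Cnot9 (−0.23 ± 0.05).

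Of 15 other tested p53 targets linked to arrest, Mdm2 among them, 12 rose (80% against 32.8% of all genes tested). Of the rest, 3 fell (20% against 36.1%), and the median was 1.98. As known p53 targets, they were likely to rise from the outset. The lists in this paragraph were drawn up with earlier results of these data known, so their shares are descriptions. Phlda3 (7.95 ± 0.27), Cdkn1a and Psrc1 (3.79 ± 0.18) rose furthest, and Sfn (−1.01 ± 0.13), E2f7 (−0.45 ± 0.05) and Sesn1 (−0.34 ± 0.09) fell. Of 16 genes for factors that are known to regulate members of the 3 families, 14 rose (87.5% against the same 32.8%) and 1, Trp53 (−0.27 ± 0.09), fell, with a median of 1.05. The Trp53 counts of the mutants can hold construct transcripts. In the control alone the Trp53 estimate was 0.47 ± 0.22 and was not called (edgeR adjusted p = 0.0844). Fos (4.74 ± 0.29), Atf3 (4.75 ± 0.37) and Jun (4.50 ± 0.14) had the largest increases, and Foxo3, a forkhead factor, rose by 1.52 ± 0.15. Untreated, Phlda3 averaged at most 0.173 CPM in any line and Fos at most 0.263 CPM, so the sizes of their changes are uncertain. Low untreated means also stood behind Cdkn1a in AH47A (0.671 CPM) and Atf3 in AH47A and 287 (0.976 and 0.410 CPM). Under nutlin, the mean of 5 mutants was lower than the control for 11 of the 15 p53 targets (73.3% against 8.76% of all genes tested). It was higher for 1, E2f7 (6.67% against 7.22%), and the median log2 difference was −0.61. For the 16 regulators these counts were 5 lower (31.2%) and 2 higher (12.5%), with a median of −0.18. The 2 higher were Brca1 and Trp53, whose counts can hold construct transcripts.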

How the data were processed

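The authors deposited raw read counts for each gene, made with featureCounts after bcl2fastq 1.8.4 on the mouse build mm10 (GRCm38), per the submitters' processing notes. No source used here names the aligner, the annotation or the strand setting. Per the labels, RNA was taken up in Trizol and purified on RNeasy columns. The 36 columns were identical to the per-sample tables. Identifiers without a symbol held 0.303% of counts.

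Testing used edgeR 4.0.16 and R 4.3.3 (TMM, filterByExpr with a minimum count of 10, robust quasi-likelihood), which kept 12321 genes with 99.94% of the counts. Nutlin responses came from a model of 12 groups and cell line (biological coefficient of variation 16%), and all other comparisons from one with line by treatment added (9.68%). P-values were adjusted by Benjamini-Hochberg over all genes tested, and a call is an adjusted p under 0.05. CPM uses TMM library sizes. A standard error is the log2 change before the fit's shrinkage over the root of F, and that change can differ from the printed one at low counts. Libraries were paired by the line their labels name, and same-line libraries deviated together in all 198 pairs (r 0.629 to 0.929). All 8 genes were named in each comparison, as were up to 3 genes per direction of each list with the largest called changes in the mean response, some defining partners, and the 3 genes most like each member. Members, lists and models were chosen with earlier results of these data known. Foxo3 among the regulators and Plk4 were named after their values were seen. Scripts were tested on simulated data. Alternatives were DESeq2 1.42.0 and its size factors, no filter, other line terms, the compared groups alone, sums per line, and leaving out lines or libraries.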

Additional observations from a re-analysis of the deposited data

Results flagged for a closer look

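In 4 of 48 sets, 1 library lay far from the other 5 for the range of the set. Each set held the 6 libraries of 1 gene, line and treatment. These 4 were Gadd45g in nutlin-treated AH47A (R270H, 21.1 CPM), Gadd45g in untreated 287 (R246Q, 14.9 CPM), Gadd45g in untreated 621 (R246Q, 0 CPM, 0 counts) and Btg2 in untreated 287 (R246Q, 121 CPM). The nominal rate of the rule is about 1 set in 20. Over all genes tested, each single library was flagged at 0.325% to 3.72% of genes, and a set holds 6 libraries. The count of 4 was not tested against these shares.

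The nutlin response differed between the 3 lines for 6 genes by the edgeR F test on the line by treatment terms. The adjusted p was 0.0175 for Gadd45a, 0.00882 for Gadd45b, 3.26e-07 for Btg1, 5.39e-05 for Btg2, 0.0237 for Plk2 and 0.00849 for Plk3. Of all genes tested, 60.3% differed in the same test.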

How the results depend on the processing

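No estimate changed sign past its threshold under any alternative run, and dropping the filter on low counts changed no call. CPM on plain library sizes was 0.949 to 1.07 times that on TMM sizes. Without the replicate block (no cell line term), the control response had 2 genes higher and 0 lower instead of 4 and 1, the mean response 0 lower instead of 1, and each mutant's response 0 higher, with 0 lower in I192S. Under nutlin the mean of 5 mutants, G280, I192S and V170M then had 0 genes lower than control, and so they did with the additive line term (2, 1, 1 and 2 before). With the line-specific fit, the mean response had 2 genes lower, R246Q 1 lower, and G280 and V170M 4 higher each. With only the groups compared, the response in G280 had 1 higher and in I192S 0 lower, while under nutlin the mean of mutants had 1 lower, I192S 0 and R246Q 3 (Plk2, Btg1 and Btg2, adjusted p = 0.00314, 0.0213 and 0.048). With DESeq2, the V170M response had 2 higher, and under nutlin the mean of mutants had 1 lower, I192S 0 and V170M 1, with 1 lower in the V170M response difference. With DESeq2's size factors in edgeR, G280 had 2 lower under nutlin and the V170M response difference 1. Single calls also changed within other counts. Btg2 was lost in the mean response without the block and in the control with only the groups compared, which also lost Gadd45a in I192S. The line-specific fit gained Btg2 in I192S and R270H and Gadd45b in the mean response. The cause of these changes was not tested.

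Leaving out lines or single libraries gave 3 to 4 genes higher and 0 to 1 lower in the control response, 4 to 5 and 1 to 3 in the mean response, and 1 to 2 higher in G280, 1 to 4 in I192S, 1 to 3 in R246Q and R270H and 1 to 2 in V170M. The lower counts were 0 to 1 in G280, I192S, R246Q and R270H. Under nutlin, 1 to 2 genes were lower in the mean of mutants. In G280 0 to 2 were lower, in I192S 0 to 1 and in V170M 1 to 3. In R270H 0 to 1 were higher, namely Gadd45g. The response difference had 0 to 2 lower in the mean of mutants and in V170M. Between lines, 3 genes differed in response in each case (6 before) and 5 to 7 when untreated. Depth limits Plk2 and Gadd45g in line 621, at 0 to 10 counts per library.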
